A study of Mus musculus with 27 samples.

Results

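Retinoid metabolism was described in whole liver through 9 genes, taken by their gene symbol from the deposited tables, of 17655 genes listed in all. The genes were Lrat and Rbp4 (storage and transport of retinol), Rdh16, Rdh9, Rdh11 and Dhrs3 (conversion between retinol and retinal), Cyp26a1 and Cyp26b1 (removal of retinoic acid) and Rarb (a retinoic acid receptor). They were chosen from results of these same read counts, so their values are given as a description. Their fold changes carry a standard error and no test. The tests below are given for 61 other genes of the pathway. That list was also drawn up with earlier results of these data known, so its p-values are a description too.

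RNA was sequenced from 27 mice, 3 in each of 9 groups, and each library is 1 mouse. All mice carried Kdm5b fl/fl alleles, in which the gene of the histone H3K4 demethylase KDM5B can be cut out by Cre, and each received an adeno-associated virus (AAV). WT mice received a control AAV, KO mice received AAV8-CMV-Cre, whose promoter is not specific to a cell type, and HepKO mice received AAV8-TBG-Cre, whose promoter is directed to hepatocytes. WDA mice drank alcohol in their water and ate a Western diet, for 8 weeks by their labels, and had WT, KO and HepKO groups of females and WT and KO groups of males. Resolution (Res) mice had 16 weeks of WDA by their labels, then the AAV and 4 weeks of chow and plain water, and had WT and KO groups of each sex. The study's methods give 16 to 20 weeks of alcohol feeding, which does not match the 8 weeks on the WDA labels, and mice were 7 or 8 weeks old when feeding began. The stage coincides with the experiment, the diet, the length of feeding, the time of the AAV and, by the labelled weeks, the age at collection. The paper also describes a surgical liver biopsy before the AAV in its resolution design. These cannot be told apart where Res mice are set against WDA mice.

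The liver is the main store of vitamin A. Hepatocytes take up retinol and release it bound to RBP4, and hepatic stellate cells keep most of it as retinyl esters made by LRAT. Retinol is oxidized to retinal by dehydrogenases of the short-chain family and then to retinoic acid by aldehyde dehydrogenases, and retinoic acid binds nuclear receptors (RARs) that pair with RXRs on DNA. CYP26 enzymes hydroxylate retinoic acid and so end its action. Cyp26a1 and Rarb are textbook target genes of the receptors, which bind a six-base motif repeated after a short gap, most often of 5 bases.

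The promoters of the 9 genes were searched for such pairs, and the stretches that held one are shown because the receptors are known for reading such pairs. The search covered the 250 bases before each RefSeq start (GRCm38.p6), 13 windows for the 9 genes, for 2 motifs in the same direction with 1, 2 or 5 bases between them, on both strands. Each motif could be AGGTCA, a variant AGTTCA, the variant GGTTCA or a further variant, GGGTCA. With 5 bases between, 2 of the 13 windows held a match, against 29 of 32851 windows of all genes (0.0883%). Both belong to the textbook targets named above, in which such a pair was already known to be likely. The share is therefore a description, and no enrichment is read from it. With 1 or 2 bases between, 0 of the 13 windows held one, against 0.164% and 0.174% of all windows. The matches are shown 5′ to 3′ on the strand of the gene, with the motifs in capitals.
Cyp26a1: taaagaTGAACTttgggTGAACTaatttgt
Rarb: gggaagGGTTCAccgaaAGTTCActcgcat
The Cyp26a1 stretch is chr19:37697770-37697799 (plus strand, its last 2 bases in an exon of a GENCODE M21 transcript), and its motifs lie 16 to 32 bases before the RefSeq start and read AGTTCA on the other strand. The Rarb stretch is chr14:16575506-16575535 (minus strand, inside an exon of 2 GENCODE M21 transcripts), and its motifs lie 37 to 53 bases before the RefSeq start. The RefSeq starts meant are those of the windows searched, chr19:37697808 for Cyp26a1 and chr14:16575476 for Rarb. Both starts and both stretches lie inside the gene spans given below, so the stretches are not outside the annotated genes. A match is a description of letters, and binding was not measured here.

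The genes lie at the following places in GRCm38.p6, and each is annotated as protein coding. Lrat (gene identifier 79235) is at chr3:82892582-82903974, Rbp4 (19662) at chr19:38116620-38125321 and Cyp26a1 (13082) on the same chromosome at chr19:37697738-37701536. Rdh9 (103142) at chr10:127776405-127792697 and Rdh16 (19683) at chr10:127801090-127815846 are neighbours in a cluster of related dehydrogenase genes. Rdh11 (17252) is at chr12:79174233-79191855, Dhrs3 (20148) at chr4:144892534-144928209, Cyp26b1 (232174) at chr6:84571414-84593908 and Rarb (218772) at chr14:16430839-17082331. Reads were summed over the whole gene.

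The libraries held 14634602 to 19388251 counts each (median 17944536). The targeted gene Kdm5b was lower on average in KO or HepKO than in WT mice in all 5 comparisons, by 0.16 to 0.98 on the log2 scale, and KO and WT mice overlapped in WDA females. All 6 hepatocyte markers were measured in every library, with summed levels of 72600 to 169300 CPM (counts relative to the library total, scaled with TMM factors). In 5 libraries (WT WDA female mouse 7, KO WDA male mouse 17, WT Res female mouse 13, WT Res male mouse 9 and KO Res male mouse 5) Krt19, a bile duct keratin, had 50 counts or more, at 2.75 to 7.07 CPM against 0 to 1.64 CPM in the other 22. The summed level of 6 bile duct markers, all measured, was 155 to 529 CPM in them and 16.4 to 105 CPM in the others, where Krt7, Krt19 and Cftr were at 0 in some. A value below that rests on them is also given without them where it moved by more than 1.5 times, changed sign or changed whether it passed.

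**Figure D1:**
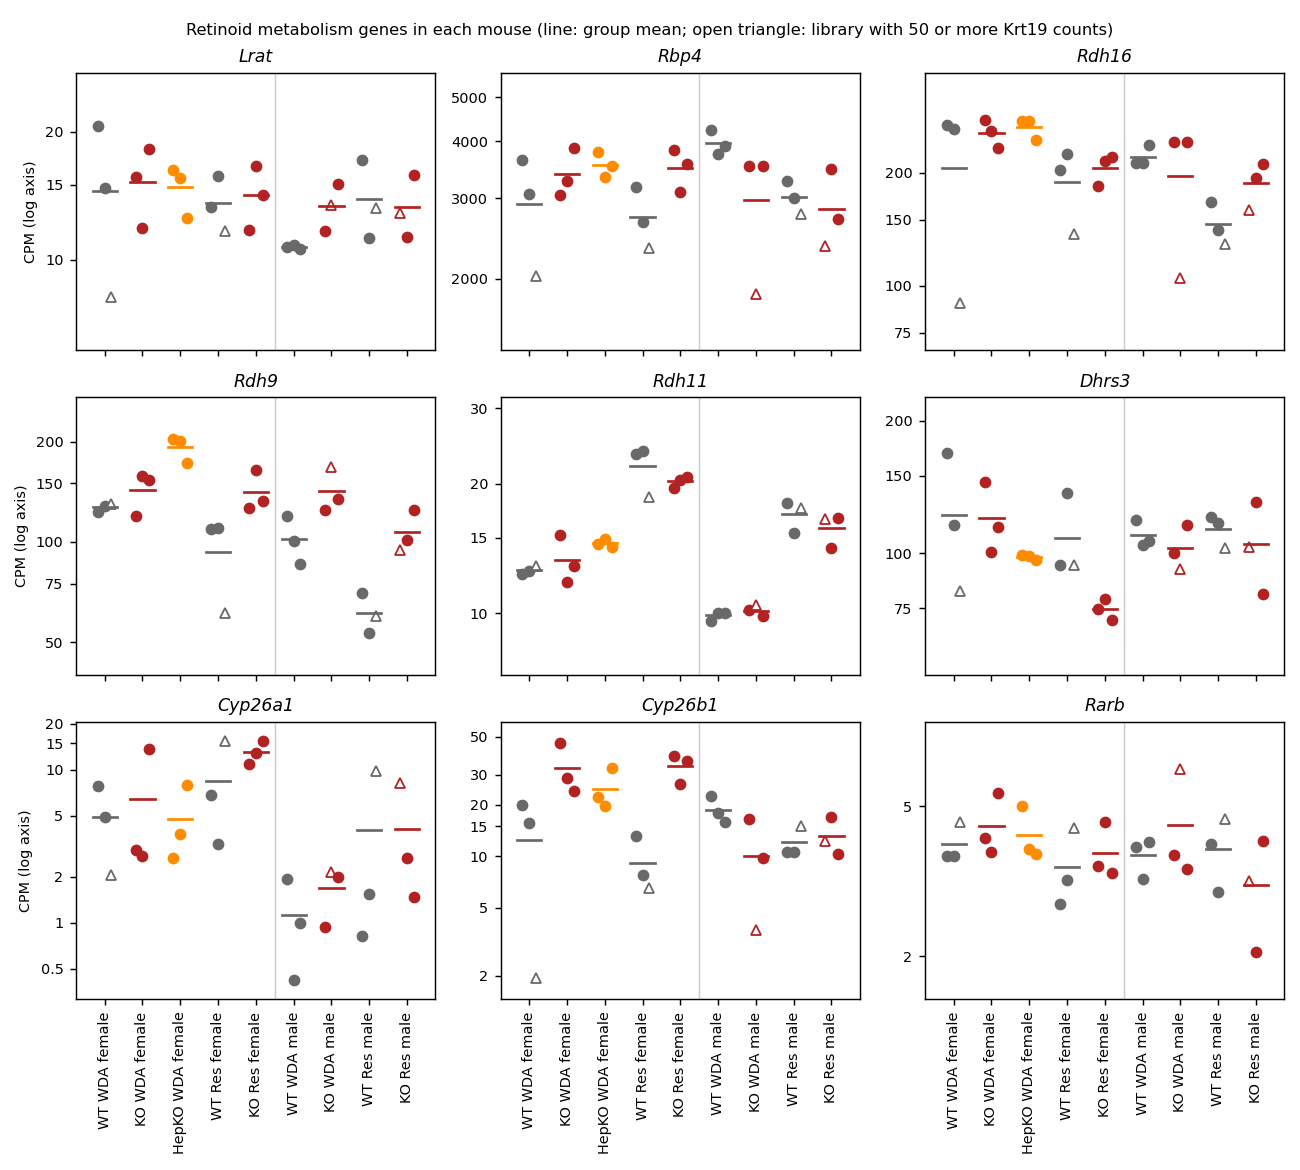
Level of each of the 9 genes in each mouse, in CPM on a log axis, by group, with females left and males right of the grey line. Points are mice, lines are group means and open triangles are the 5 libraries with 50 or more Krt19 counts. Rdh11 was higher in every Res group than in the matching WDA group, and Cyp26b1 was higher in KO than in WT females at both stages.

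On the deposited FPKM scale, which divides by transcript length and so allows a comparison between genes, Rbp4 stood far above the others, with a median of 4509 over the 27 libraries and a range of 3453 to 5635. The medians were 74.5 for Rdh16, 50.9 for Dhrs3, 48.7 for Rdh9, 5.42 for Rdh11, 3.13 for Cyp26b1, 2.81 for Lrat, 1.97 for Cyp26a1 and 1.29 for Rarb. The ranges of Rdh16 (45.4 to 97.3), Dhrs3 (33.0 to 79.9) and Rdh9 (20.8 to 89.0) overlapped, and so did that of Rdh11 (3.18 to 9.66) with those of Cyp26b1 (0.53 to 8.89), Lrat (1.77 to 3.96) and Cyp26a1 (0.29 to 12.5), and those of the last 3 with that of Rarb (0.64 to 2.95). The order of neighbours within these is not separated from the spread. Between the lowest and the highest library, Cyp26a1 varied 36.6-fold and Cyp26b1 23.5-fold in CPM, and the other 7 genes varied 2.29-fold to 3.81-fold.

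Rbp4, the carrier that takes retinol from the liver into blood, overlapped between the groups compared except where WT WDA males took part. WT WDA males had 3757, 3908 and 4237 CPM and WT Res males 2777, 3005 and 3273 CPM, so the groups did not overlap, and the log2 fold change of Res against WDA was -0.38 (SE 0.12). The other Res against WDA differences were between -0.09 and 0.04, with overlapping groups, and -0.20 in WT females and -0.19 in KO males without the libraries high in Krt19. KO WDA males had 1854, 3540 and 3541 CPM, all below the WT WDA males, a log2 fold change of -0.40 (SE 0.29) that was -0.16 (SE 0.10) without mouse 17, the lowest of the 3. The other comparisons with WT ran from -0.07 (SE 0.22) in KO Res males to 0.32 (SE 0.17) in KO Res females, with HepKO WDA females at 0.29 (SE 0.26). Without the libraries high in Krt19 these were -0.02 (SE 0.26), 0.23 (SE 0.16) and 0.09 (SE 0.11). In the 5 libraries high in Krt19 Rbp4 was at 1854 to 2777 CPM, against 2664 to 4237 CPM in the other 22.

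Lrat, which esterifies retinol for storage and is made in liver by stellate cells, lay between 8.17 and 20.6 CPM in all libraries. Its groups overlapped in every comparison of 1 group with another except where WT WDA males took part, whose mice had 10.6, 10.7 and 10.8 CPM. WT Res males had 11.3, 13.2 and 17.2 CPM and KO WDA males 11.7, 13.4 and 15.1 CPM, all above them, at log2 fold changes of 0.39 (SE 0.16) and 0.34 (SE 0.13). The summed level of 10 other stellate markers was 267 to 305 CPM in WT WDA males, 249 to 335 CPM in WT Res males and 343 to 388 CPM in KO WDA males, none of the 10 being at 0, and their part in the Lrat values was not tested. In RNA from whole liver, fewer cells of a type and less RNA per cell cannot be told apart.

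Rdh16, a hepatocyte dehydrogenase that oxidizes retinol to retinal, was lower after resolution in WT males. WT WDA males had 211.7, 211.8 and 237 CPM, and WT Res males 130, 141 and 168 CPM. The groups did not overlap, and the log2 fold change was -0.58 (SE 0.11), or a level 0.671 times that of WDA. KO females had 233, 259 and 276 CPM on WDA and 184, 215 and 220 CPM after resolution, again without overlap, at -0.31 (SE 0.12). In WT females and KO males the groups overlapped and the log2 fold changes were -0.13 (SE 0.42) and -0.05 (SE 0.33), or -0.30 (SE 0.14) and -0.25 (SE 0.18) without the libraries high in Krt19. Both held a WDA library high in Krt19, in which Rdh16 was lowest of its group, at 89.8 CPM in WT WDA female mouse 7 and 105 CPM in KO WDA male mouse 17. Over the 8 WT and KO groups the mean difference between stages was -0.27 (SE 0.16), and -0.35 (SE 0.06) without the 5 libraries.

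Rdh9, a related dehydrogenase next to Rdh16, was also lower after resolution in every pair but KO females, and was higher in KO or HepKO than in WT mice without overlap in every comparison but that of KO with WT WDA females. WT WDA males had 86.1, 101 and 120 CPM, WT Res males 53.4, 60.0 and 70.3 CPM and KO Res males 94.4, 101 and 125 CPM. The WT Res males thus lay below both other groups without overlap, with log2 fold changes of -0.72 (SE 0.15) for Res against WDA in WT and 0.82 (SE 0.17) for KO against WT after resolution. In females the WT Res mice had 61.2, 109.7 and 109.8 CPM, the WT WDA mice 123, 128 and 130 CPM and the KO Res mice 126, 133 and 164 CPM, again without overlap. The log2 fold changes were -0.44 (SE 0.24) for Res against WDA in WT females, which was -0.19 (SE 0.13) without the 2 libraries high in Krt19, and 0.55 (SE 0.23) for KO against WT, which was 0.33 (SE 0.15) without WT Res female mouse 13. HepKO WDA females had 173, 201.5 and 203 CPM, all above the WT WDA females, at 0.59 (SE 0.13). KO WDA males had 125, 135 and 168 CPM, above the WT WDA males, at 0.50 (SE 0.18), while KO and WT WDA females overlapped, at 0.15 (SE 0.16). In KO mice the stages did not overlap in males, at -0.40 (SE 0.19), or -0.19 (SE 0.19) without the 2 libraries high in Krt19, and overlapped in females, at -0.02 (SE 0.14).

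The Rdh9 values carry a doubt of counting. Of 3580 stretches of 50 bases in the Rdh9 transcripts of GENCODE M21, 68.3% also occur in a transcript of another gene, 2387 of them in Rdh16f1, a copy that was not listed in the tables, and 392 in Rdh16. In the Rdh16 transcripts 13.98% of 6239 stretches were shared. The other 7 genes shared 0. How reads with several places were split was not given in the sources used here, so the Rdh9 level may hold reads of its neighbours and is uncertain, and the Rdh16 level less so.

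Rdh11, which reduces retinal and is best known from photoreceptors and prostate, was higher after resolution in all 4 pairs of groups. WT females had 12.4, 12.5 and 12.9 CPM on WDA and 18.6, 23.5 and 23.8 CPM after resolution, at a log2 fold change of 0.81 (SE 0.14). WT males had 9.61, 10.03 and 10.04 CPM on WDA and 15.4, 17.5 and 18.1 CPM after resolution, at 0.80 (SE 0.11). KO females had 11.9, 12.9 and 15.2 CPM on WDA and 19.6, 20.4 and 20.8 CPM after resolution, at 0.61 (SE 0.13). KO males went from 9.85, 10.2 and 10.46 CPM to 14.2, 16.5 and 16.7 CPM, at 0.65 (SE 0.15). No Res library overlapped with the WDA libraries of its sex and vector, and the mean difference was 0.71 (SE 0.06), a 1.63-fold higher level, and 0.73 (SE 0.07) without the 5 libraries high in Krt19. Rdh11 was also higher in females than in males, by 0.37 (SE 0.06) on average. KO and WT mice overlapped in all 4 comparisons, with log2 fold changes from -0.16 to 0.06, or from -0.25 to 0.10 without the libraries high in Krt19, and HepKO WDA females (14.3, 14.5 and 14.9 CPM) lay above the WT WDA females, at 0.20 (SE 0.11).

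Dhrs3, a retinal reductase that returns retinal to retinol, was lowest in KO Res females. They had 70.8, 74.7 and 78.6 CPM, against 101, 115 and 145 CPM in KO WDA females and 93.97, 94.0 and 137 CPM in WT Res females. Neither group overlapped with them. The log2 fold changes were -0.69 (SE 0.14) for the stage in KO females and -0.58 (SE 0.17) for KO against WT females after resolution. The latter was -0.66 (SE 0.18) without WT Res female mouse 13, and -0.36 without WT Res female mouse 12, the one at 137 CPM. In the other 3 pairs of stages the log2 fold change lay between -0.17 and 0.07, and in the other 4 comparisons with WT between -0.32 and -0.04, with overlapping groups. Without the libraries high in Krt19 these lay between -0.30 and 0.13 and between -0.54 and -0.02. The largest of these, in HepKO females (96.5, 98.7 and 99.3 CPM), was -0.32 (SE 0.25), and -0.54 (SE 0.15) without WT WDA female mouse 7. The difference of the stage effect between females and males was -0.47 (SE 0.22), and that between KO and WT mice was -0.26 (SE 0.22).

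Cyp26a1, the main hepatic hydroxylase of retinoic acid, had the largest SD relative to its mean of the 9 genes in 6 of the 9 groups, and Cyp26b1 had it in the other 3 (WT WDA females, KO WDA males and KO Res females). WT WDA males had 0.424, 1.003 and 1.95 CPM and KO WDA males 0.939, 2.01 and 2.16 CPM, while KO Res females had 11.0, 12.9 and 15.5 CPM. KO WDA females had 2.74, 3.01 and 13.7 CPM and WT Res females 3.29, 6.82 and 15.4 CPM, so a single mouse stood well above its 2 groupmates in each. KO against WT WDA females was 0.38 (SE 0.72), and -0.78 without KO mouse 3, the highest. Res and WDA mice overlapped in all 4 pairs, at log2 fold changes of 0.80 (SE 0.66) in WT females, 1.90 (SE 0.92) in WT males, 1.03 (SE 0.50) in KO females and 1.28 (SE 0.65) in KO males. The KO female value was 2.18 without WDA mouse 3. The highest Res mouse of the WT females (15.4 CPM), WT males (9.80 CPM) and KO males (8.21 CPM) was in each case the library high in Krt19. Without that 1 mouse the values were 0.03 in WT females, 0.10 in WT males and 0.29 in KO males. Where the WDA libraries high in Krt19 were left out as well, they were -0.33 (SE 0.40) in WT females and 0.49 (SE 0.52) in KO males. Without the 5 such libraries the mean difference between stages was 0.31 (SE 0.35), against 1.23 (SE 0.43) with them. Females were higher than males by 1.69 (SE 0.43) on average, a 3.23-fold difference, and by 2.34 (SE 0.34) without those libraries. KO and WT mice overlapped in each comparison, with log2 fold changes from 0.02 to 0.62, or from 0.02 to 1.36 without the libraries high in Krt19. HepKO and WT mice overlapped too, at -0.04 (SE 0.57), or -0.41 (SE 0.40) without WT mouse 7. The lowest value, 0.02 (SE 0.89) in Res males, was -1.01 without KO mouse 5, 1.81 without WT mouse 9 and 0.81 (SE 0.48) without both. After resolution in females the value was 0.57 (SE 0.47) with WT mouse 13 and 1.36 (SE 0.30) without it.

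Cyp26b1, the second retinoic acid hydroxylase, was higher in KO than in WT females at both stages. WT Res females had 6.52, 7.78 and 13.2 CPM (140, 144 and 235 counts), and KO Res females had 26.3, 36.0 and 38.6 CPM (454, 640 and 658 counts). The groups did not overlap, and the level in KO mice was 3.58 times that of WT mice, a log2 fold change of 1.84 (SE 0.26), and 1.65 (SE 0.26) without WT mouse 13, the lowest library. On WDA, WT females had 1.95, 15.6 and 19.9 CPM, KO females 24.1, 28.6 and 46.0 CPM and HepKO females 19.8, 22.1 and 32.9 CPM. KO females lay above the WT females, at 1.40 (SE 0.69), while HepKO females overlapped with them, at 1.01 (SE 0.69). Without WT WDA female mouse 7, the library at 1.95 CPM, these values were 0.89 (SE 0.27) and 0.49 (SE 0.21).

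In males Cyp26b1 showed no such order. WT WDA males had 15.8, 17.9 and 22.7 CPM and KO WDA males 3.68, 9.79 and 16.5 CPM, and WT Res males had 10.57, 10.61 and 15.1 CPM and KO Res males 10.3, 12.3 and 17.01 CPM. KO and WT males overlapped at both stages, at -0.91 (SE 0.47) on WDA, which was -0.51 (SE 0.23) without KO mouse 17, and 0.13 (SE 0.23) after resolution, which was 0.37 (SE 0.26) without the 2 libraries high in Krt19. WT Res males lay below WT WDA males without overlap, at -0.61 (SE 0.20), and at -0.81 (SE 0.17) without Res mouse 9. The other pairs of stages overlapped and did not share a direction. They were at -0.44 (SE 0.73) in WT females, 0.03 (SE 0.23) in KO females and 0.415 (SE 0.485) in KO males. Without the libraries high in Krt19 the WT female value was -0.75 (SE 0.28) and the KO male value 0.06 (SE 0.33). The difference between the sexes in the KO effect was not tested, and the difference of the stage effect between KO and WT mice was 0.76 (SE 0.54). In the 5 libraries high in Krt19 Cyp26b1 was at 1.95 to 15.1 CPM, against 7.78 to 46.0 CPM in the other 22, and the part of these livers in the Cyp26b1 values was not tested. The summed sinusoidal endothelium markers (5 of 5 measured, none at 0) were 260 to 298 CPM in KO Res females and 183 to 265 CPM in WT Res females, and the 10 stellate markers were 466 to 549 CPM and 315 to 427 CPM. The shift was not particular to these 2 sets. The hepatocyte sum was 142100 to 169300 CPM in KO Res females and 97200 to 154500 CPM in WT Res females. The sum of Kupffer cell (liver macrophage) markers was 374 to 535 CPM and 171 to 390 CPM. The bile duct sum went the other way, at 19.4 to 27.9 CPM and 30.9 to 236 CPM. The part of any of these cells in the Cyp26b1 difference was not tested.

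Rarb, a receptor that is itself induced by retinoic acid, had the lowest median FPKM of the 9, though single libraries of Cyp26a1 and Cyp26b1 lay lower, and lay between 2.06 and 6.27 CPM in all 27 libraries. Its groups overlapped in each comparison of 1 group with another. The log2 fold changes lay between -0.51 (SE 0.36, Res against WDA in KO males) and 0.29 (SE 0.29, KO against WT WDA males). Without the libraries high in Krt19 these were -0.21 (SE 0.38) and -0.06 (SE 0.20), and Res against WDA in WT males went from 0.08 to -0.08. Other values moved away from 0. Res against WDA in WT females went from -0.20 to -0.30 (SE 0.25). KO against WT went from 0.08 to 0.31 (SE 0.24) in Res females and from 0.14 to 0.27 (SE 0.24) in WDA females. HepKO against WT went from 0.07 to 0.19 (SE 0.21), while KO against WT Res males went from -0.30 to -0.16 (SE 0.39).

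**Figure D2:**
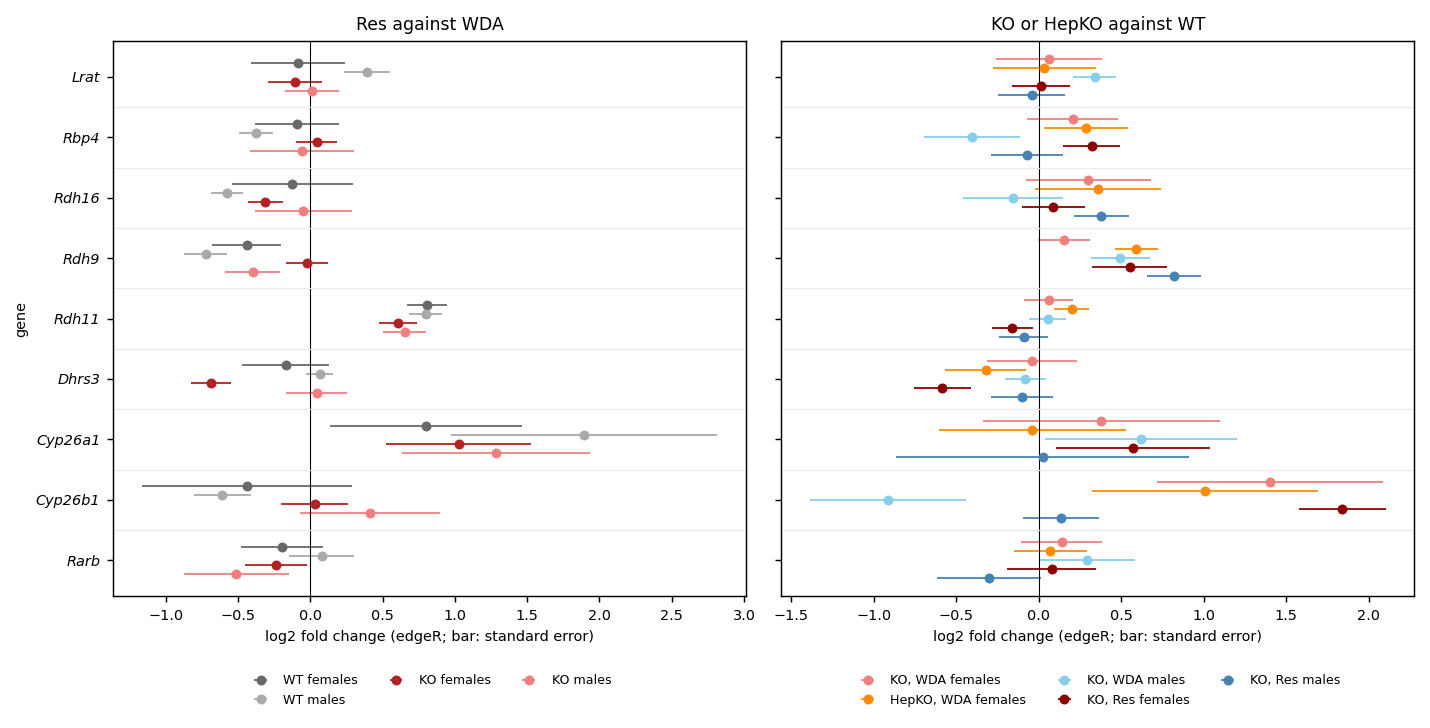
Log2 fold changes of the 9 genes from edgeR, Res against WDA (left) and KO or HepKO against WT (right), with bars of 1 standard error. Rdh11 lies between 0.61 and 0.81 in all 4 pairs of stages, and Cyp26b1 reaches 1.84 in KO against WT Res females.

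How many of the 9 genes passed edgeR's quasi-likelihood test at an adjusted p-value under 0.05 (Benjamini-Hochberg over all genes tested) is given beside the share of all genes, and nothing is read from it because the genes were chosen from these contrasts. For Res against WDA in WT males 1 of 9 passed as higher (Rdh11) and 2 as lower (Rdh16 and Rdh9), against 4.99% and 5.98% of all genes (11% in all). In KO females 1 passed as higher (Rdh11) and 1 as lower (Dhrs3), against 10.2% and 10.2% (20.4% in all), and over the 4 pairs 2 passed as higher (Rdh11 and Cyp26a1) and 1 as lower (Rdh9), against 14.1% and 15.7% (29.8% in all). Between females and males 3 passed as higher in females (Rdh9, Rdh11 and Cyp26a1) and 0 as lower, against 5.99% and 5.3% (11.3% in all). In WT females, KO males and all 5 comparisons of KO or HepKO with WT, 0 of 9 passed, where 0% of all genes did, at 183 to 2413 genes with an unadjusted p-value under 0.05. DESeq2 called 5 of 9 for the stage in WT males (adding Rbp4 and Cyp26b1), against 13.9% of all genes, and the same genes as edgeR in KO females (20.8%), over the 4 pairs (31.7%) and between sexes (13.5%). It called 1 of 9 in WT females (Rdh11, against 3.21% of all genes), KO Res females (Cyp26b1, 5.04%), KO Res males (Rdh9, 0.0555%) and HepKO females (Rdh9, 1.85%), and 0 in KO males (0.62%), KO WDA females (0.0645%) and KO WDA males (0.137%). For the differences of the stage effect between sexes and between KO and WT mice, 0 of 9 passed in edgeR and in DESeq2, where 0.118% (0.0666% higher and 0.0518% lower) and 0% of all genes passed in edgeR and 0.754% and 0% in DESeq2.

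These calls depended on single mice, as did the share of all genes called. In WT males 1 of 9 (Rdh11) passed without Res mouse 8 (3.97% of all genes), WDA mouse 19 (2.69%) or WDA mouse 20 (1.6%), 0 without WDA mouse 21 (0.835%), and 4 (with Cyp26b1) without Res mouse 9 (13.5%). In KO females 0 passed without Res mouse 4 (8.14%) and 3 (with Cyp26a1) without WDA mouse 3 (17.4%). In KO Res females 1 (Cyp26b1) passed without WT mouse 1 (6.65%), and in HepKO females 1 (Rdh9) without WT mouse 7 (2.8%). In the mean over stages Rdh11 and Rdh9 passed in all 24 fits that left out 1 mouse (25.6% to 35.3% of all genes). Cyp26a1 passed in 15, and did not without KO Res female 4, KO Res male 5, KO WDA female 1 or 2, KO WDA male 16, WT Res female 13, WT Res male 9 or WT WDA male 20 or 21, nor without the 5 libraries high in Krt19, where Rdh16, Rdh9 and Rdh11 passed (38.2% of all genes). Rdh16 also passed without WT WDA female 7 (35.3%). Between the sexes Rdh11 and Cyp26a1 passed in all 24 (8.45% to 13.5% of all genes), Rdh9 in 10 and Cyp26b1 in 1, the fit without WT WDA female 7 (12.6%). Without the 5 libraries 5 of 9 passed between the sexes, Rdh16 and Cyp26b1 being added (20.1%).

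The other genes of the pathway were tested to place the 9 in their context. Of the 61 listed, 59 were in the tables, 44 to 48 passed the filter on low counts, and genes such as Stra6, Crabp1, Crabp2 and Cyp26c1 had at most 2 counts in any library. Over the 4 pairs of stages 17 of 48 tested genes passed, 5 higher and 12 lower after resolution. Of all genes 29.8% passed, 14.1% higher and 15.7% lower, so nothing is read from the count. The same shares stand beside the counts by role below. The median log2 fold change of the pathway genes was -0.14, against 0.00 for all genes. Of the 14 oxidoreductases tested, 2 rose and 2 fell. Adh1, the alcohol dehydrogenase that also oxidizes retinol, fell by 0.77 (SE 0.13, edgeR adjusted p = 0.000222), and Dhrs7, of the short-chain family, fell by 0.60 (SE 0.15, edgeR adjusted p = 0.00568).

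Of the 7 genes of retinoic acid synthesis and carotenoid cleavage tested, 2 fell and 0 rose over the stages. Bco1, which cleaves beta-carotene to retinal, fell by 0.60 (SE 0.18, edgeR adjusted p = 0.0139), and by 0.25 without the libraries high in Krt19, where it did not pass. Of the 9 genes of ester storage and hydrolysis tested, 1 rose and 2 fell. Ces1d, a carboxylesterase, rose by 0.66 (SE 0.20, edgeR adjusted p = 0.0195), and Lipa, the lysosomal acid lipase, fell by 0.65 (SE 0.08, edgeR adjusted p = 1.87e-05). Of the other retinoic acid responsive genes, 3 of 4 tested fell, and Rarres1 did so by 0.83 (SE 0.23, edgeR adjusted p = 0.01). Of 9 receptors and cofactors tested, 2 rose and 1 fell, and of 5 genes of transport and binding, 0 rose and 2 fell.

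**Figure D3:**
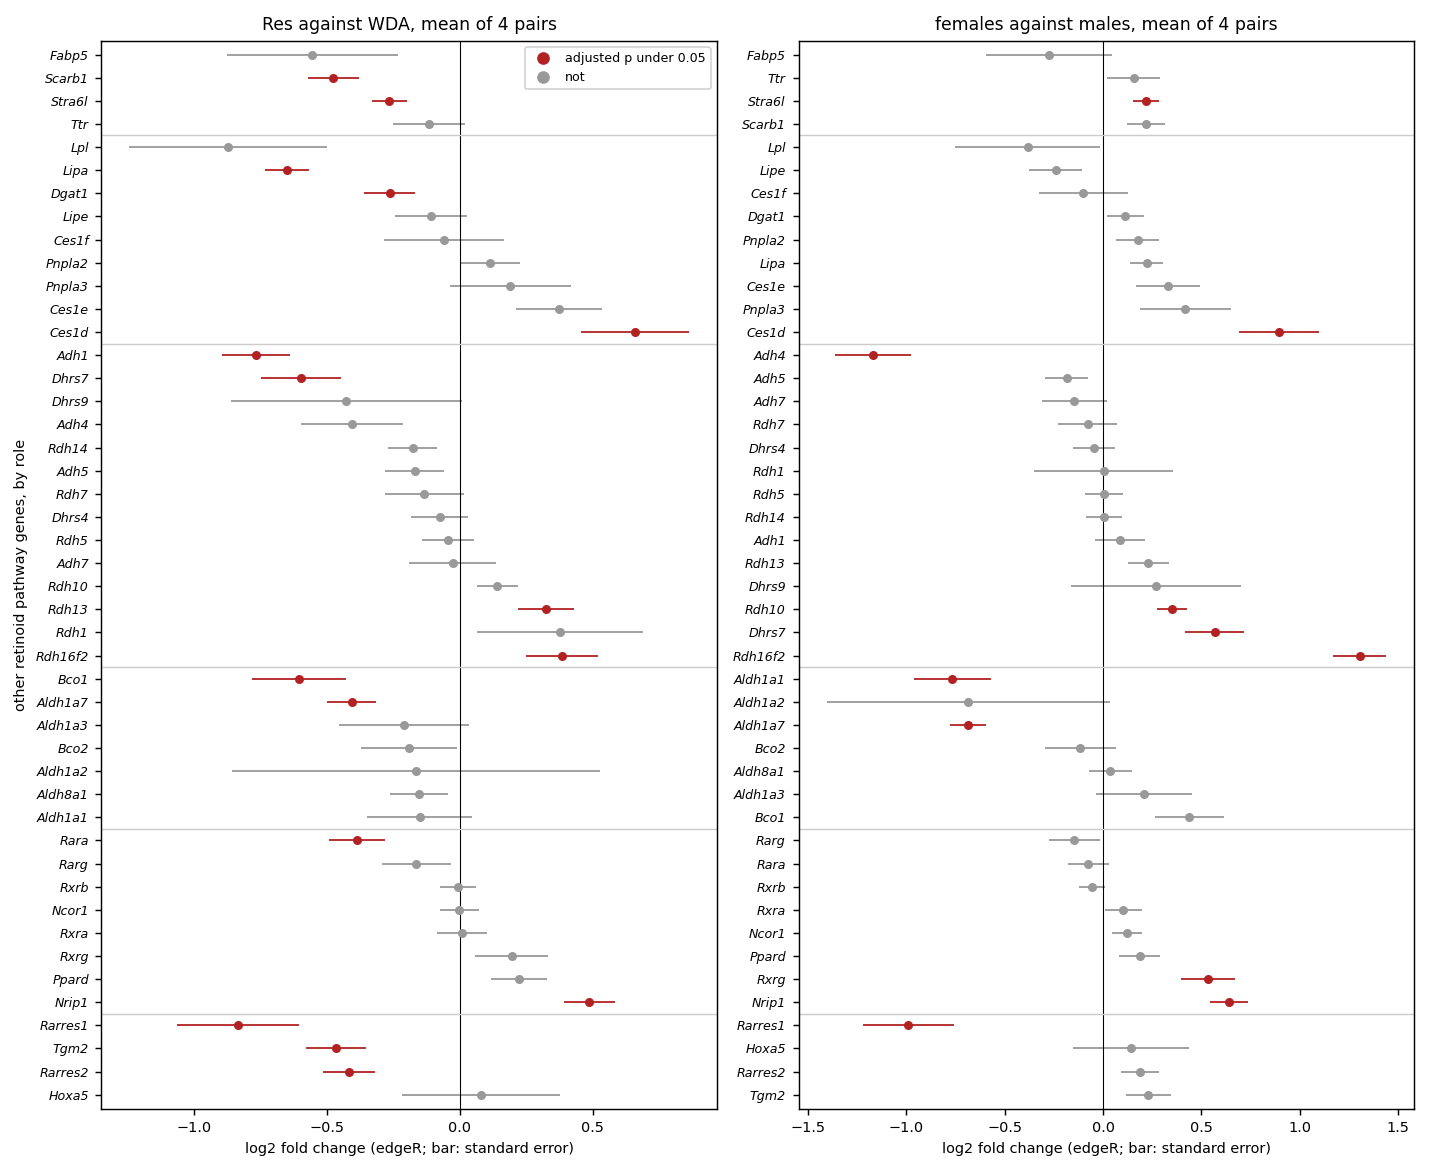
Log2 fold changes of 46 of the 48 other retinoid pathway genes tested, with bars of 1 standard error, for Res against WDA (left) and females against males (right), each the mean of 4 pairs of groups. From top to bottom the blocks are transport and binding, ester storage and hydrolysis, oxidoreductases, retinoic acid synthesis and carotenoid cleavage, receptors and cofactors, and other responsive genes. Red marks the 16 and 11 genes drawn with an adjusted p-value under 0.05, which 29.8% and 11.3% of all genes had.

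In WT males alone 10 of 45 tested genes passed, 2 higher and 8 lower after resolution. Of all genes 11% passed, 4.99% higher and 5.98% lower. Adh1 was at 1821 to 1892 CPM on WDA and 852 to 962 CPM after resolution and fell by 1.05 (SE 0.11, edgeR adjusted p = 0.00357). Rarres1, Dhrs7, Adh4 and Aldh1a7, the last an aldehyde dehydrogenase, fell by 0.92, 0.73, 0.71 and 0.66 (edgeR adjusted p = 0.0272, 0.0171, 0.0188 and 0.0104), and Rdh13, a mitochondrial retinal reductase, rose by 0.59 (edgeR adjusted p = 0.0375). The count rested on single mice, as did the share of all genes. It was 5 without Res mouse 8 (3.97% of all genes) and 3 without WDA mouse 19 (2.69%). It was 1 without WDA mouse 20 (1.6%) or WDA mouse 21 (0.835%).

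In KO females 17 of 47 tested genes passed, 7 higher and 10 lower after resolution. Of all genes 20.4% passed, 10.2% higher and 10.2% lower. Dhrs9, a retinol dehydrogenase of low level here (2.74 to 4.34 CPM on WDA and 1.29 to 1.58 CPM after resolution), fell by 1.41 (SE 0.26, edgeR adjusted p = 0.00632). Lipa fell by 1.05 (SE 0.11, edgeR adjusted p = 0.000937) and Lpl, the lipoprotein lipase, by 0.93 (SE 0.19, edgeR adjusted p = 0.0103). Ces1d rose by 1.001 (edgeR adjusted p = 0.00481). The count was 7 without KO Res female mouse 4 (8.14% of all genes) and 11 without KO Res female mouse 2 (1337 of 12591 genes).

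In WT females and KO males 0 pathway genes passed in edgeR or DESeq2 for the stage, with 6 and 4 at an unadjusted p-value under 0.05. Of all genes 0% passed in edgeR in both, and 3.21% and 0.62% in DESeq2. In WT females 1 pathway gene passed without WDA mouse 7 (15 of 12705 genes in all). Of KO or HepKO against WT, 0 passed in edgeR in any of the 5 comparisons, where 0% of all genes did. An unadjusted p-value under 0.05 was seen for 2 genes in KO WDA females, 2 in KO WDA males, 7 in KO Res females, 3 in KO Res males and 5 in HepKO females. DESeq2 called 0, 0, 3, 0 and 2 pathway genes in that order, against 0.0645%, 0.137%, 5.04%, 0.0555% and 1.85% of all genes. In KO Res females 2 passed without WT mouse 1 (6.65% of all genes), and in HepKO females 1 passed without WT mouse 7 (2.8%). The stage effect differed between sexes, or between KO and WT mice, for 0 pathway genes in edgeR and DESeq2, with 4 and 0 at an unadjusted p-value under 0.05. Of all genes 0.118% and 0% passed in edgeR, and 0.754% and 0% in DESeq2.

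Between females and males 11 of 48 tested pathway genes passed, 7 higher and 4 lower in females. Of all genes 11.3% passed, 5.99% higher and 5.3% lower. Rdh16f2, a further dehydrogenase of the Rdh16 cluster, was higher in females by 1.30 (SE 0.14, edgeR adjusted p = 1.99e-06), with group means of 114 to 195 CPM in WT and KO females and 53.4 to 79.3 CPM in males. Ces1d was higher in females by 0.90 (SE 0.21, edgeR adjusted p = 0.00704). Lower in females were Adh4 at -1.17 (SE 0.19, edgeR adjusted p = 0.000437), Rarres1 at -0.99 (SE 0.23, edgeR adjusted p = 0.00783), Aldh1a1, the main retinal dehydrogenase of adult liver, at -0.77 (SE 0.20, edgeR adjusted p = 0.0153), and Aldh1a7 at -0.69 (SE 0.09, edgeR adjusted p = 4.49e-05).

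Among themselves the 9 genes moved together only in part. Over the 27 libraries, which share the same scaling, Pearson's r of log2 CPM was 0.76 for Cyp26b1 with Rbp4, 0.74 for Cyp26b1 with Rdh16 and 0.74 for Rdh16 with Rbp4, and 0.55 for Cyp26a1 with Rdh11. It was 0.29 for Cyp26a1 with Cyp26b1. The 3 genes that go together had their lowest levels in libraries high in Krt19.

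**Figure D4:**
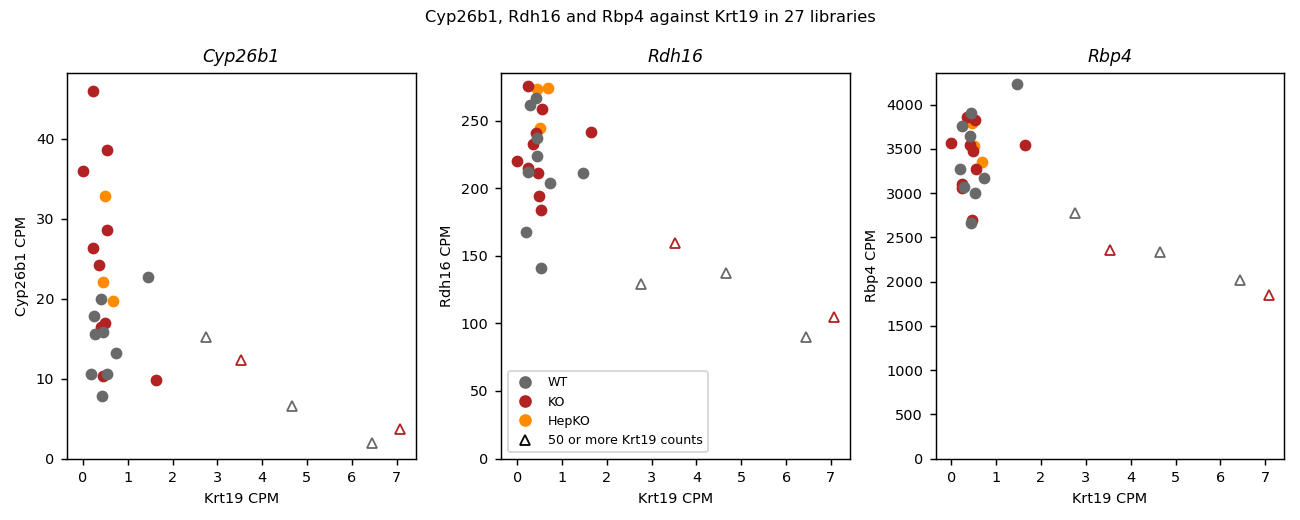
Cyp26b1, Rdh16 and Rbp4 in CPM (linear axes from 0) against Krt19 in CPM (linear axis) in the 27 libraries, coloured by vector. Open triangles are the 5 libraries with 50 or more Krt19 counts, at 2.75 to 7.07 CPM of Krt19, and hold the lowest level of each of the 3 genes.

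The genes most like each of the 9 over the 27 libraries were also named, by Pearson's r of log2 CPM and with no test. They were Dpp4 (0.97), Hsd17b11 (0.94) and Pcsk6 (0.94) for Rdh16, Rbpms2 (0.93), Psmd9 (0.92) and Hpd (0.91) for Rbp4, and Wdr26 (0.90), Ces1b (0.90) and Man1a2 (0.88) for Rdh11. For Cyp26b1 they were Slco2b1 (0.88), Gaa (0.87) and Mup10 (0.86), and for Cyp26a1 Alkbh1 (0.83), Zbtb2 (0.81) and Lnx2 (0.80). For Rdh9 they were Bhlhb9 (0.84), Postn (0.82) and Tceal8 (0.81), and for Dhrs3 Gfod2 (0.82), Taz (0.81) and Tcta (0.81). Rarb (Jazf1 0.75, Acot9 0.74 and Slc10a3 0.73) and Lrat (Sap18 0.71, Rap2c 0.71 and Cfl2 0.70) had the least close partners.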

How the data were processed

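Whole-liver RNA of 27 mice was sequenced on the BGISEQ platform, and the submitters' notes name HISAT, Bowtie2 and GRCm38.p6. The authors deposited 4 tables with an expected count per gene and library (estimated reads, not normalized, 6.33% to 8.43% of them not whole numbers) and an FPKM value, whose tool is not given in the sources used here. Counts were rounded, and genes absent from a table counted as 0 there. Groups came from the labels.

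The analysis used R 4.3.3, edgeR 4.0.16 (filterByExpr with a minimum count of 10, TMM, glmQLFit and glmQLFTest, Benjamini-Hochberg adjustment, threshold 0.05) and standard errors computed as the absolute fold change over the square root of F. Pairs of groups were fitted alone, and means over 4 pairs and differences between effects on the 8 WT and KO groups. The fits were also run on simulated counts, as a check of the code only. These had the same spread for every gene, larger changes than most given here and no libraries that stand apart. They say nothing of how the fits deal with such libraries. CPM used TMM factors, and correlations used log2 CPM with a prior count of 2. Alternatives used DESeq2 1.42.0 and limma 3.58.1, the latter on log2(FPKM + 0.1) and log2(FPKM + 1). RefSeq promoter windows matched all 9 genes. Precision rests on 3 mice a group. Nothing says more of how the mice of a group are related, so p-values measure the spread between these mice.

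The 9 genes, the 61 pathway genes and the markers were chosen with earlier results of these data known. Named were the 9 genes, Kdm5b, up to 6 pathway genes per comparison with the largest change among those that passed, and the 3 genes most correlated with each of the 9. Stra6, Crabp1, Crabp2 and Cyp26c1 were named after their counts were seen. Of the pathway genes, 2 are counted but their own results are not reported here.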

Additional observations from a re-analysis of the deposited data

How the results depend on the processing

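The counts of pathway genes that passed were recomputed under 8 other settings of tool, scaling, filter, spread or measure, without each mouse, and without the 5 libraries with 50 or more Krt19 counts (chosen after seeing the data). No result changed direction where it had passed, and 247 counts stayed within 1.5 times of the main one while 20 did not. A count of 0 that stayed at 0 is among the 247. The main count was 0 for the stage in WT females and KO males. It was also 0 for KO or HepKO against WT and for both differences of the stage effect. The 247 therefore say little of how steady the counts above 0 were. For Res against WDA in WT males (10 passed) the count was 3 with log2(FPKM + 0.1), 3 with log2(FPKM + 1), 1 with a spread shared by all groups and 1 to 8 without 1 mouse. In KO females (17) it was 4 with a shared spread, 7 to 16 without 1 mouse and 10 with a replicate block, which can use only mice 2 and 3. The numbers do not pair mice, since the stages were separate experiments. In WT females (0) it was 3 with a shared spread and 0 to 1 without 1 mouse. In KO Res females (0) it was 3 with DESeq2, 1 with a shared spread and 0 to 2 without 1 mouse, and in HepKO females (0) it was 2 with DESeq2, 1 without the libraries high in Krt19 and 0 to 1 without 1 mouse. Between sexes (11) it was 18 without those libraries and 10 to 14 without 1 mouse, and over the stages (17) it was 15 to 20 without 1 mouse. The number of all genes called shifted as well. In WT males it went from 1361 to 605 with log2(FPKM + 0.1), 545 with log2(FPKM + 1) and 308 with a shared spread. The cause of these shifts was not tested. Cyp26a1 in WT females went from 0.80 to -0.33 without the libraries high in Krt19. Of the fold changes named, 2511 values were counted as unchanged, 33 as moved and 38 as no longer passing. For Kdm5b and the retinoid genes given without a test, unchanged meant a shift below the spread between mice of a group. For the named pathway genes it meant that the gene still passed, however far its value moved. The 38 are values of pathway genes only, so passes lost by the other genes are not among them. Where a fit left 1 mouse in a group, that mouse was assumed to vary like the others. Genes with few counts, such as Cyp26a1 in WT WDA males and Rarb, are limited by depth.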
